A study of Homo sapiens with 12 samples.

Results

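Genes that build ribosomes, and 2 enzymes counted with them as biogenesis genes, were followed across 4 treatments of a human breast epithelial line. The set holds 44 listed genes, of which 39 were measured by an array probe set that names that gene alone, out of 18417 genes tested on the array. A gene with several probe sets is represented by the brightest of them, on average over the 12 arrays. By their role, the measured genes fall into 5 of RNA polymerase I and its transcription, 11 of the small ribosomal subunit, 9 of the large subunit, 6 of the core of small nucleolar ribonucleoproteins (snoRNPs), 6 other nucleolar proteins, and 2 enzymes of nucleotide and polyamine synthesis. NOP56 and PPAN are named only on probe sets shared with other genes, and GNL3, EBNA1BP2 and DDX18 were not analysed here.

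Every sample was MCF10A, a non-tumorigenic breast epithelial line, carrying a stably transfected chimera of full-length human HER2 with FKBP and HA tags, so the controls carry the receptor too. The 4 groups of 3 arrays each were untreated cells, cells given AP1510, cells given heregulin and cells given TGF-alpha. AP1510 binds FKBP at both of its ends and so pairs the chimeras into HER2 homodimers. TGF-alpha activates EGFR, whereas heregulin binds HER3 and HER4. Serum and EGF had been withdrawn 24 hours before ligand, and cholera toxin, hydrocortisone and insulin stayed in the medium. RNA was taken 48 hours after ligand, and the labels used here give neither doses, nor the harvest time of the untreated cells, nor whether the line is 1 clone. Each group's 3 dishes were seeded side by side per the labels, and the spread that p-values measure is that between dishes, which may be technical.

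A ribosome is assembled in the nucleolus, where RNA polymerase I copies the ribosomal DNA into a long precursor. The small-subunit processome and the large-subunit assembly factors fold and cut this precursor, while snoRNPs guide its ribose methylation and its pseudouridylation. Growth factors are known to raise this pathway in epithelial cells through ERK, mTOR and the transcription factor MYC, which binds the E-box CACGTG in the promoters of many of these genes.

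Promoters are shown because this E-box is frequent in them. RefSeq (GRCh38.p14) held a promoter, 250 bases before to 50 after the start site, for 31 of the 39 measured genes, 37 promoters in all. The hexamer CACGTG reads the same on both strands, and a gene was counted if any of its promoters held it. It stood in 14 of these 31 genes (45.2%), against 10.9% of 15843 protein-coding genes. Among the tested genes whose level lay above the median of all probe sets the share was 12.9%. Counted by promoter, 14 of 37 held it (37.8%), against 8.32% of the promoters of all genes tested. Of the genes that rose with TGF-alpha, 14.5% held it. Printed below is, for each role class with a holder, the holder with the largest change under TGF-alpha, with the hexamer in capitals. The windows are chr2:28894417-28894716 on the plus strand for WDR43 (small subunit), chr12:6568242-6568541 on the minus strand for NOP2 (large subunit), chr19:39846330-39846629 on the minus strand for FBL (snoRNP core), chr4:4289972-4290271 on the minus strand for LYAR (other nucleolar) and chr2:10447963-10448262 on the minus strand for ODC1 (enzymes).
WDR43: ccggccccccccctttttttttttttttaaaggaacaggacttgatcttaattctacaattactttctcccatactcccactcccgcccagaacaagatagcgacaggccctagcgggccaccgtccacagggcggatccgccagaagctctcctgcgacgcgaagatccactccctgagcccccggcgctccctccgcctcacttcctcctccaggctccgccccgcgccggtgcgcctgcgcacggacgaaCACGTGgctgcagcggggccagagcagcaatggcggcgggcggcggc
NOP2: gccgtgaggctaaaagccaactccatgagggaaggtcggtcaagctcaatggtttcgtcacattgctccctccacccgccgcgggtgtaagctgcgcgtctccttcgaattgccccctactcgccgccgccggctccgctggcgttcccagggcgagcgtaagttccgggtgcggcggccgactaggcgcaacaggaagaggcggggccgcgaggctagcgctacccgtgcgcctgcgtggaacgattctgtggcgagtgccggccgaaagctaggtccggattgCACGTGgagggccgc
FBL: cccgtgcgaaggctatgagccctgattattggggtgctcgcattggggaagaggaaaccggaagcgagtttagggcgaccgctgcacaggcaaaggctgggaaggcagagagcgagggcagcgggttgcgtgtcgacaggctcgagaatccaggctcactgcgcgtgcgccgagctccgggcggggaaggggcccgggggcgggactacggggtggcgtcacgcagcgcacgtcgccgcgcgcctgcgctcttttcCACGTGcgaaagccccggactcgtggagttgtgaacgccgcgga
LYAR: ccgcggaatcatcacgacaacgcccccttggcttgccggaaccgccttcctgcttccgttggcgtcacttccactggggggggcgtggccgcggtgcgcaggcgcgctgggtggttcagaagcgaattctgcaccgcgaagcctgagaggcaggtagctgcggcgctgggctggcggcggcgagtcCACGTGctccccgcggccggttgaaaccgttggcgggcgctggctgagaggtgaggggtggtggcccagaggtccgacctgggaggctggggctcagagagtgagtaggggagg
ODC1: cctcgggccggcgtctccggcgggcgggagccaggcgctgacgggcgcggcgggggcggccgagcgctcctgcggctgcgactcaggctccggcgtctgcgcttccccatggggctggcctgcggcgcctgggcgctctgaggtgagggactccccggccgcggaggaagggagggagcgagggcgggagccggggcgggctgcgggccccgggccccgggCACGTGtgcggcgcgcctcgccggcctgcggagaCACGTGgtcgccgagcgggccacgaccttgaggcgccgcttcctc

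The hexamer begins at position 3 after the start site in WDR43, at 6 in FBL and at 35 in NOP2. It lies upstream in LYAR, at position -64, and ODC1 holds it at -29 and again at 5. These positions refer to the window printed: LYAR and ODC1, like DDX21 and GAR1, each have another promoter window that lacks the hexamer. By role it stood in 6 of 10 small-subunit genes with a promoter, 2 of 6 large-subunit genes, 2 of 4 snoRNP genes, 3 of 6 other nucleolar genes, 1 of 2 enzymes and 0 of 3 RNA polymerase I genes. The same search found it in 13 of 35 other small-subunit factors (37.1%), 12 of 39 other large-subunit factors (30.8%) and 3 of 49 cytosolic ribosomal proteins (6.12%). It stood in 37.5% of RNA polymerase III genes, 27.3% of MYC network genes and 23.5% of proliferation genes. The share was 16.7% for the RNA exosome, 14.3% for snoRNP assembly factors and 9.09% for other RNA polymerase I factors. Other motifs searched on both strands, none of which lies within another although neighbouring matches can share bases, were CACGCG in 12 of the 31 genes (38.7%, against 18.1% of protein-coding genes), CCGGAAG in 11 (35.5%, against 16.5%), the palindromic motif of NRF1 in 3 (9.68%, against 1.99%), CCAAT in 14 (45.2%, against 42.1%) and TATAAA in 1 (3.23%, against 12.4%). The 14 genes with the E-box had a median log2 change of 0.62 under TGF-alpha and the 17 genes without it 0.68, and under heregulin both medians were 0.32. A match is a description of these letters and shows no binding.

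Before the members, the arrays and cells were checked. Over all genes, pairs of arrays from 1 group had correlations of 0.988 to 0.994, and pairs from 2 groups 0.978 to 0.993. AP1510 replicate 1 stood apart from its group on the first principal component (48.6% of the variance), at -2.43 against -12 and -14, and the main counts and changes under AP1510 are also given without it. Heregulin replicate 2 stood apart from its group on the second component, at -30.1 against -20 and -17.8.

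Some epithelial markers changed too, not all in the direction of the members, and their part in the results was not tested. Of 4 epithelium markers, TGF-alpha raised KRT8, KRT18 and EPCAM, while CDH1 did not pass (log2 change -0.21, adjusted p = 0.082). Heregulin lowered EPCAM by 1.09 on the log2 scale (adjusted p = 0.0025) and raised 0. Of 4 basal markers, TGF-alpha raised ITGA6 2.45-fold (adjusted p = 2.9e-08), KRT5 and KRT14 and lowered CDH3, and both AP1510 and heregulin raised KRT5 and KRT14. The summed log2 level of the basal list was 38.4 to 38.5 in untreated cells, 39.4 to 39.7 with AP1510, 39.7 to 40.0 with heregulin and 40.9 to 41.1 with TGF-alpha, and that of the epithelium list 42.9 to 43.1, 42.8 to 43.5, 41.4 to 42.2 and 45.0 to 45.4. Markers of other cell types ran from a group mean of 2.74 for the fibroblast gene LUM to 8.67 for the endothelial gene PECAM1 and 8.74 for DCN, so not all of them were dim. TGF-alpha lowered 1 of 4 leukocyte markers (CD68), 1 of 4 endothelial (CDH5) and 1 of 5 fibroblast markers (DCN) and raised KDR. Heregulin raised DCN 3.01-fold (adjusted p = 9.1e-07) and KDR, and lowered CDH5 and PECAM1. The summed levels of these lists in untreated cells, AP1510, heregulin and TGF-alpha were 19.7 to 19.9, 19.7 to 20.1, 19.4 to 20.0 and 18.7 to 19.2 for leukocytes, 23.6 to 23.7, 23.2 to 23.7, 23.5 to 24.1 and 23.6 to 24.0 for endothelium, and 25.5 to 25.9, 25.2 to 26.0, 27.1 to 27.6 and 24.6 to 24.8 for fibroblasts.

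TGF-alpha raised nearly the whole set, whose members were chosen with earlier results of these data known. The share of all genes beside each count is thus a reference and no test of the set. In the limma fit over all genes, 38 of 39 members were higher than in untreated cells and 0 lower at an adjusted p under 0.05, against 12.5% of all genes tested that were higher and 13.4% that were lower. NHP2 was the member that did not pass. The median log2 change was 0.68, or 1.60-fold, with a range from 0.15 to 2.50, while the median over all genes was -0.01. On all 39, the 3 TGF-alpha arrays lay above the 3 untreated arrays, which held for 19.4% of all genes. RMA sets the arrays to a common distribution, so these are levels relative to other transcripts, and more RNA of a gene per cell cannot be told apart from more cells holding it.

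Heregulin raised 17 of 39 members and lowered 0, against 3.45% of all genes higher and 5.06% lower, with a median log2 change of 0.32 (1.25-fold). On 29 of 39 its 3 arrays lay above the untreated ones (10.5% of all genes). AP1510 raised 0 and lowered 0, against 0.771% of all genes higher and 0.7% lower in the same limma fit. At an unadjusted p under 0.05 there were 6 members, against 11.1% of all genes, and its arrays lay all above the untreated ones on 7 members (7.36% of all genes) and all below on 1 (9.93%). Without AP1510 replicate 1 these were 8 (11.3%) and 4 (15.5%). The moderated F test over the 4 groups passed for 37 of 39 members, against 28.5% of all genes, and GAR1 and NHP2 did not pass. On 36 of 39 members all 3 TGF-alpha arrays lay above all 9 other arrays (11% of all genes). The exceptions were NOP2 and NOP58, which heregulin arrays reached, and DDX10, where a heregulin array equalled the lowest TGF-alpha array to 2 decimals. TGF-alpha passed as higher than each of the other 3 groups on 28 of 39 members, against 7.49% of all genes.

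**Figure D1:**
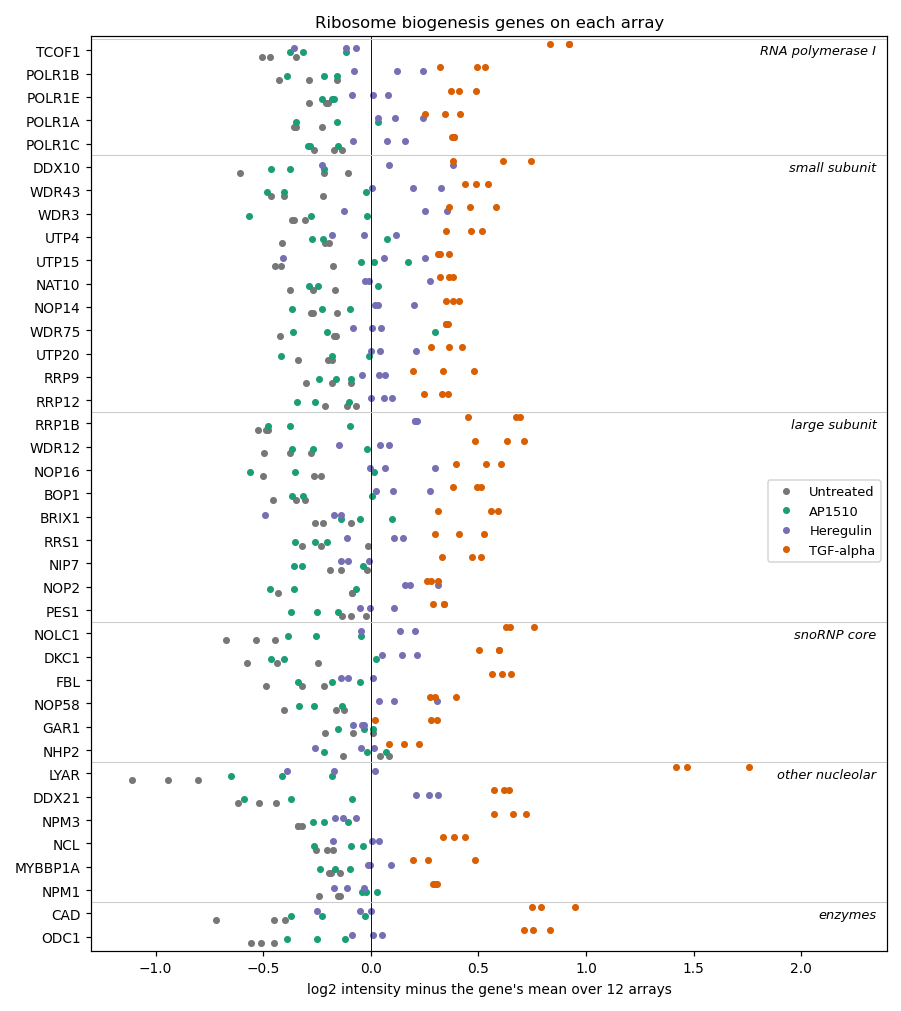
Log2 intensity of each of the 39 measured genes on each of the 12 arrays, minus the gene's mean over the 12 arrays, ordered by role class and by the change under TGF-alpha; each point is 1 array, coloured by treatment. On 36 genes the 3 TGF-alpha points lie to the right of the other 9.

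**Figure D2:**
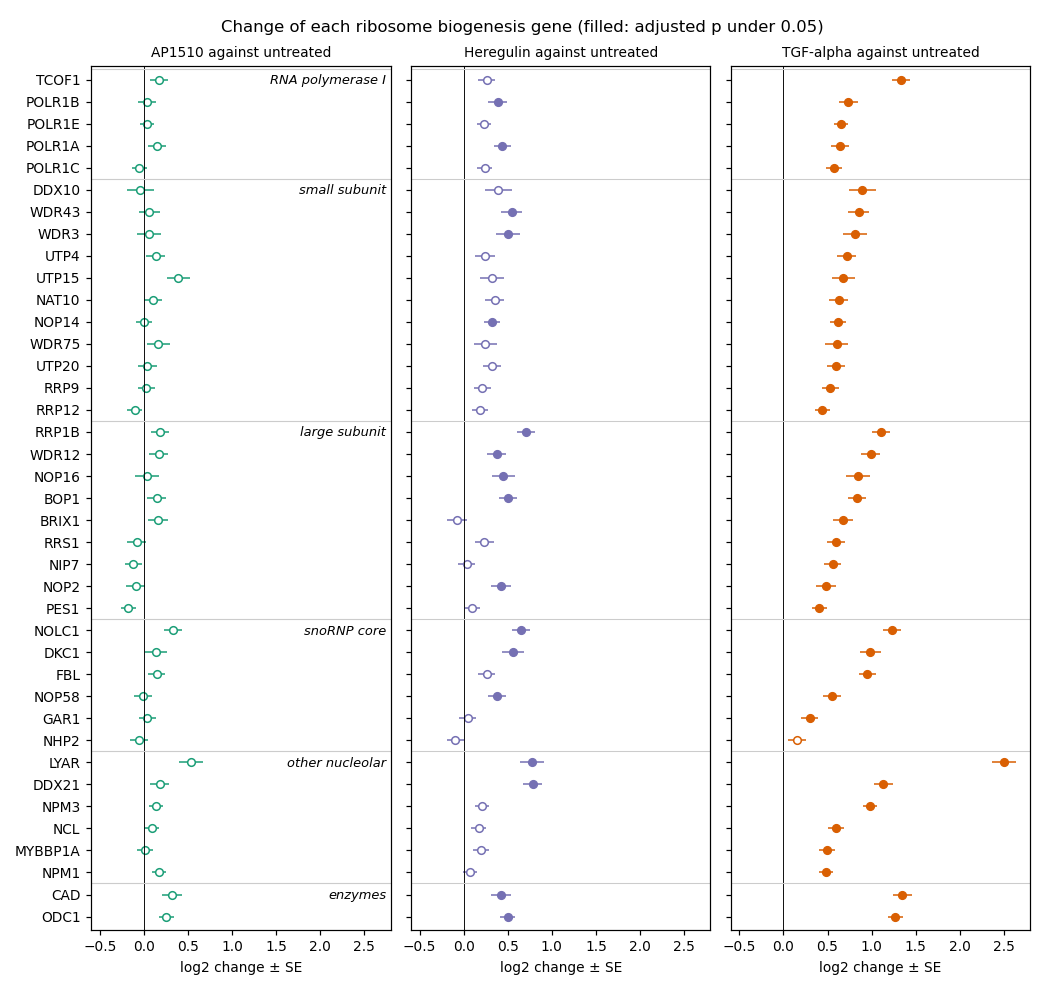
Log2 change of each gene against untreated cells with its standard error from the limma fit, for AP1510, heregulin and TGF-alpha; filled points have an adjusted p under 0.05. Filled points number 0 of 39 for AP1510, 17 for heregulin and 38 for TGF-alpha.

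The RNA polymerase I class comprises the catalytic subunits POLR1A and POLR1B, the subunits POLR1C and POLR1E, and TCOF1 (treacle), a nucleolar protein that supports transcription of ribosomal DNA. All 5 rose with TGF-alpha, with a median log2 change of 0.66, 2 of 5 rose with heregulin (median 0.26) and 0 of 5 with AP1510 (median 0.04). TCOF1 read 6.52, 6.68 and 6.56 (log2 intensity) on the untreated arrays, 6.71, 6.65 and 6.91 with AP1510, 6.67, 6.96 and 6.91 with heregulin, and 7.86, 7.95 and 7.95 with TGF-alpha. The TGF-alpha arrays stood clear of all others, and the other 3 groups overlapped. TCOF1 was 2.52-fold higher with TGF-alpha (log2 change 1.33 ± 0.099 SE, adjusted p = 4.9e-08), while its log2 change with heregulin was 0.26 ± 0.099 (adjusted p = 0.13). Between these ligands the log2 difference, heregulin minus TGF-alpha, was -1.07 (adjusted p = 7.1e-07). POLR1A read 7.61, 7.48 and 7.49 untreated, 7.87, 7.49 and 7.68 with AP1510, 8.08, 7.95 and 7.87 with heregulin, and 8.09, 8.25 and 8.18 with TGF-alpha. Its heregulin arrays came close to its TGF-alpha arrays without overlap. With TGF-alpha POLR1A rose 1.56-fold (adjusted p = 1.4e-04). The rise with heregulin was 1.36-fold (adjusted p = 0.012, or 0.051 without untreated replicate 3), and the log2 difference between the ligands was -0.20 ± 0.102 (adjusted p = 0.19).

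The small-subunit class holds the processome proteins UTP4, UTP15, WDR43, WDR75, WDR3, UTP20 and NOP14, the snoRNP-bound RRP9, the export factor RRP12, the helicase DDX10 and the RNA acetyltransferase NAT10. All 11 rose with TGF-alpha (median 0.63, range 0.44 for RRP12 to 0.89 for DDX10), and 3 of 11, namely WDR43, WDR3 and NOP14, rose with heregulin (median 0.32). WDR43 gave 8.73, 8.67 and 8.91 untreated, 9.11, 8.65 and 8.73 with AP1510, 9.46, 9.14 and 9.33 with heregulin, and 9.57, 9.62 and 9.68 with TGF-alpha. AP1510 replicate 1 was the highest array of its group and the groups under heregulin and TGF-alpha did not overlap. WDR43 rose 1.81-fold with TGF-alpha (log2 change 0.86 ± 0.119, adjusted p = 4.0e-05), and heregulin raised it 1.46-fold (adjusted p = 0.0080). Between the ligands its log2 difference was -0.31 ± 0.119 (adjusted p = 0.080). WDR75, with the weakest evidence of a difference in the class, gave 6.94, 6.68 and 6.93 untreated, 7.40, 6.90 and 6.74 with AP1510, 7.15, 7.02 and 7.11 with heregulin, and 7.45, 7.46 and 7.45 with TGF-alpha. The first AP1510 array reached almost the TGF-alpha level while its other arrays lay within the untreated range. TGF-alpha raised WDR75 1.52-fold (log2 change 0.60 ± 0.132, adjusted p = 0.0024), and it was 1.18-fold above untreated with heregulin (adjusted p = 0.32). UTP15 had a log2 change of 0.39 ± 0.135 with AP1510 (adjusted p = 0.23), with all AP1510 arrays above the untreated ones, and 0.33 ± 0.151 (adjusted p = 0.55) without AP1510 replicate 1.

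Among large-subunit factors are PES1, BOP1 and WDR12, which form one complex, the rRNA methyltransferase NOP2, and NOP16, BRIX1, RRS1, NIP7 and RRP1B. All 9 measured rose with TGF-alpha (median 0.68, from 0.40 for PES1 to 1.11 for RRP1B). With heregulin 5 of 9 rose, RRP1B, BOP1, NOP16, NOP2 and WDR12, with a class median of 0.38. RRP1B, a nucleolar protein of the pre-ribosome, read 6.80, 6.75 and 6.79 untreated, 7.18, 6.80 and 6.90 with AP1510, 7.48, 7.49 and 7.48 with heregulin, and 7.73, 7.95 and 7.97 with TGF-alpha. Its heregulin and TGF-alpha arrays each formed a separate level above both other groups. The rise was 2.15-fold with TGF-alpha (log2 change 1.11 ± 0.101, adjusted p = 4.5e-07), and heregulin gave 1.63-fold (adjusted p = 2.4e-04). NOP2 read 7.67, 7.67 and 7.33 untreated, 7.69, 7.29 and 7.40 with AP1510, 8.07, 7.94 and 7.92 with heregulin, and 8.07, 8.04 and 8.02 with TGF-alpha. Here the heregulin and TGF-alpha arrays overlapped. NOP2 rose 1.40-fold with TGF-alpha (adjusted p = 0.0038). Heregulin raised it 1.34-fold (adjusted p = 0.028, up to 0.15 without untreated replicate 3), and the log2 difference between the ligands was -0.06 ± 0.113 (adjusted p = 0.77), the smallest of the 39. BRIX1 had a log2 change of 0.68 ± 0.111 with TGF-alpha (adjusted p = 2.0e-04) and -0.08 ± 0.111 with heregulin (adjusted p = 0.77). PES1 was the single member with all AP1510 arrays below the untreated ones, at a log2 change of -0.18 ± 0.085 (adjusted p = 0.46), and the change was also -0.18 (adjusted p = 0.63) without AP1510 replicate 1. A second BOP1 probe set changed by 0.83 with TGF-alpha, as did the one used, but with heregulin by 0.33 ± 0.0898 (adjusted p over all probe sets = 0.072, against 0.022 for the one used), so the call for heregulin differs between them.

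The snoRNP core holds the ribose methyltransferase FBL and its partner NOP58, the pseudouridine synthase DKC1 with GAR1 and NHP2, and NOLC1, which binds snoRNPs. With TGF-alpha 5 of 6 rose (median 0.75), and 3 of 6, NOLC1, DKC1 and NOP58, rose with heregulin (median 0.32). NOLC1 read 7.58, 7.81 and 7.72 untreated, 8.21, 8.0 and 7.87 with AP1510, 8.46, 8.21 and 8.39 with heregulin, and 8.90, 8.88 and 9.01 with TGF-alpha. Every treated array lay above every untreated one. The changes were 2.34-fold with TGF-alpha (log2 change 1.23 ± 0.103, adjusted p = 1.9e-07), 1.57-fold with heregulin (adjusted p = 6.4e-04), and 1.25-fold with AP1510, which did not pass (adjusted p = 0.18, or 1.18-fold and 0.54 without AP1510 replicate 1). NHP2 read 8.86, 8.90 and 8.69 untreated, 8.89, 8.60 and 8.80 with AP1510, 8.56, 8.77 and 8.83 with heregulin, and 9.04, 8.97 and 8.90 with TGF-alpha. The groups lay close together, and its log2 change with TGF-alpha was 0.15 ± 0.101 (adjusted p = 0.33). A second NHP2 probe set changed by 0.55 ± 0.0813 with TGF-alpha (1.47-fold, adjusted p over all probe sets = 4.9e-04), so the probe sets of this gene disagree on the call. For GAR1 the rise with TGF-alpha was 1.23-fold (adjusted p = 0.028), and the adjusted p reached 0.12 when untreated replicate 2 was left out.

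Other nucleolar proteins comprise the histone chaperones NPM1 and NPM3, nucleolin (NCL), the helicase DDX21, the repressor MYBBP1A and LYAR, a nucleolar zinc finger protein. All 6 rose with TGF-alpha (median 0.79), and LYAR and DDX21 rose with heregulin (class median 0.21). LYAR read 6.25, 6.39 and 6.08 untreated, 7.01, 6.78 and 6.54 with AP1510, 7.21, 6.80 and 7.02 with heregulin, and 8.61, 8.66 and 8.95 with TGF-alpha. The untreated arrays were the lowest, the AP1510 and heregulin arrays overlapped, and the TGF-alpha arrays stood far above. LYAR had the largest change of the 39, 5.65-fold with TGF-alpha (log2 change 2.50 ± 0.136, adjusted p = 2.6e-09), and rose 1.70-fold with heregulin (adjusted p = 0.0016). With AP1510 it was 1.45-fold higher (log2 change 0.53 ± 0.136, adjusted p = 0.069, between 0.031 and 0.31 over the alternatives run; the 0.31, at a log2 change of 0.42, is without AP1510 replicate 1). Heregulin minus TGF-alpha was -1.73 ± 0.136 (adjusted p = 1.4e-07), the largest difference between these ligands among the members. MYBBP1A read 7.42, 7.47 and 7.43 untreated, 7.52, 7.38 and 7.45 with AP1510, 7.71, 7.60 and 7.61 with heregulin, and 7.88, 7.81 and 8.10 with TGF-alpha. Untreated and AP1510 arrays overlapped, and the TGF-alpha arrays were above the rest. Its rise with TGF-alpha was 1.41-fold (adjusted p = 5.4e-04), while the 1.15-fold difference with heregulin did not pass (adjusted p = 0.22). DDX21 had the largest change with heregulin, 1.72-fold (log2 change 0.79 ± 0.108, adjusted p = 1.6e-04), beside 2.19-fold with TGF-alpha (adjusted p = 7.7e-07). NPM1 has 3 further probe sets; 2 changed by 0.50 and 0.49 with TGF-alpha, close to the 0.48 of the one used, and the other, with an untreated mean of 3.97, by 0.31 (adjusted p over all probe sets = 0.075).

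CAD, which starts pyrimidine synthesis, and ODC1, the rate-limiting enzyme of polyamine synthesis, rose with both ligands. ODC1 read 8.79, 8.84 and 8.90 untreated, 9.23, 9.10 and 8.96 with AP1510, 9.40, 9.26 and 9.36 with heregulin, and 10.06, 10.10 and 10.18 with TGF-alpha. The 4 groups formed 4 levels with no overlap between any of them. TGF-alpha raised ODC1 2.41-fold (log2 change 1.27 ± 0.088, adjusted p = 2.8e-08), heregulin raised it 1.41-fold (adjusted p = 0.0016), and the 1.19-fold difference with AP1510 did not pass (adjusted p = 0.23, or 1.14-fold and 0.59 without AP1510 replicate 1). CAD read 6.56, 6.88 and 6.83 untreated, 7.25, 6.91 and 7.05 with AP1510, 7.28, 7.03 and 7.23 with heregulin, and 8.03, 8.07 and 8.23 with TGF-alpha. The AP1510 and heregulin arrays overlapped each other and lay above the untreated ones. Its rise was 2.55-fold with TGF-alpha (adjusted p = 1.7e-07), and under heregulin 1.34-fold (adjusted p = 0.026, up to 0.14 without untreated replicate 1).

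Set side by side, the RNA polymerase I, small-subunit and large-subunit classes gave like values. Their mean levels over class members, each gene taken relative to its own mean over 12 arrays, were -0.29 ± 0.0419, -0.27 ± 0.0258 and -0.26 ± 0.0363 in untreated cells (log2, SD over 3 arrays). With TGF-alpha they were 0.50 ± 0.0563, 0.40 ± 0.0673 and 0.46 ± 0.0718. With heregulin they lay at 0.02 ± 0.0422, 0.06 ± 0.148 and 0.04 ± 0.0556, and with AP1510 at -0.22 ± 0.0606, -0.19 ± 0.159 and -0.24 ± 0.154. The SDs of the small- and large-subunit classes under AP1510 come from replicate 1, at -0.01 and -0.06, while the other arrays lay between -0.33 and -0.26. Under heregulin the small-subunit class was also spread, at 0.2, -0.1 and 0.08 on replicates 1, 2 and 3. The other nucleolar proteins went from -0.40 untreated to 0.63 with TGF-alpha and the enzymes from -0.51 to 0.80. These class values are descriptions, and the classes were not tested against each other.

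**Figure D3:**
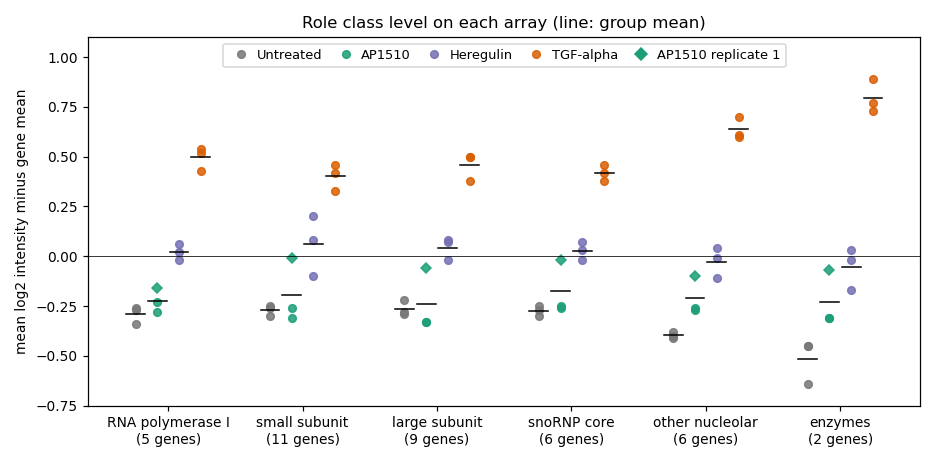
Mean level of each role class on each array, as log2 intensity minus the gene's mean over 12 arrays, averaged over the class members; points are arrays, lines are group means and the diamond is AP1510 replicate 1. In each class the TGF-alpha points are the highest, and AP1510 replicate 1 lies above the other AP1510 arrays.

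The ligands were also compared directly, a difference in which the untreated arrays enter only through the shared estimate of spread. Heregulin was below TGF-alpha on 28 of 39 members and above on 0, against 11.8% of all genes lower and 9.88% higher, with a median log2 difference of -0.36 (range -1.73 to -0.06). By class, 4 of 5 RNA polymerase I, 5 of 11 small-subunit, 8 of 9 large-subunit, 3 of 6 snoRNP and 6 of 6 other nucleolar genes and both enzymes were lower with heregulin. The 11 that did not pass were NOP2, NOP58, GAR1, NHP2, WDR43, WDR75, WDR3, UTP15, UTP20, NAT10 and POLR1A, with log2 differences of -0.06 for NOP2 to -0.36 for UTP15, and 6 of them are small-subunit factors. The count fell to 18 without TGF-alpha replicate 2, 17 without TGF-alpha replicate 3 and 18 without heregulin replicate 2.

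TGF-alpha was above AP1510 on 36 of 39 members and below on 0, against 11.2% of all genes higher and 10.4% lower, with a median log2 difference of 0.63, and on 36 also without AP1510 replicate 1. GAR1 (1.20-fold, adjusted p = 0.064), NHP2 (1.15-fold, adjusted p = 0.18) and UTP15 (1.22-fold, adjusted p = 0.16) did not pass. Heregulin was above AP1510 on 8 of 39 and below on 0, against 3.27% of all genes higher and 3.95% lower, namely NOP2, NOP14, NOP58, DKC1, WDR43, BOP1, RRP1B and DDX21, with a median over all members of 0.25. DDX21 differed most, by 1.52-fold (adjusted p = 0.0021). This count was 15 without AP1510 replicate 1, 2 without AP1510 replicate 2, 3 without AP1510 replicate 3 or heregulin replicate 3, and 5 without untreated replicate 1 or any one of the TGF-alpha arrays.

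The heregulin calls against untreated cells rest on few arrays. Of the 17, 8 passed in each of the 12 fits that left out 1 array: NOLC1, DKC1, WDR43, BOP1, RRP1B, DDX21, LYAR and ODC1. The count was 11 without untreated replicate 2, 9 without untreated replicate 3 or heregulin replicate 3, and 10 without heregulin replicate 1. Calls over all genes, in either direction, fell as well in these fits, from 8.5% to 6.81%, 5.64%, 7.13% and 7.39% in that order. Of the 38 TGF-alpha calls, 37 passed in all 12 such fits and GAR1 did not. Under AP1510, 30 of 39 members had a log2 change above 0 (45.4% of all genes) with a median of 0.09. Without AP1510 replicate 1 these were 21 members and a median of 0.01, and 0 members were called. LYAR alone was called when AP1510 replicate 3 or heregulin replicate 2 was left out. The group means rose in the order untreated, AP1510, heregulin, TGF-alpha on 27 of 39 members (5.99% of all genes), and on 18 (5.4% of all genes) without AP1510 replicate 1, which is a description.

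Other genes of the pathway rose in part with TGF-alpha, with lower medians than the members, and 12.5% of all genes rose in this comparison. Both the members and these lists were chosen with earlier results of these data known. The gap between them therefore cannot be told apart from that choice. Of 41 other small-subunit factors 25 rose (median 0.43), with PDCD11, a processome scaffold, up 1.92-fold (adjusted p = 1.3e-05), and of 43 other large-subunit factors 33 rose (median 0.38), with PAK1IP1 up 2.14-fold (adjusted p = 3.2e-06) and NOP53 the one that fell, by 0.27 on the log2 scale (adjusted p = 0.015). Of 11 other RNA polymerase I factors 6 rose (median 0.31), with TAF1B, of the promoter selectivity complex, up 1.83-fold (adjusted p = 5.4e-04). TAF1A and TAF1D of this complex rose too. The initiation factors RRN3 and UBTF did not pass: RRN3 had a log2 change of 0.24 ± 0.129 (adjusted p = 0.21) and UBTF -0.03 ± 0.0812 (adjusted p = 0.86). Of 9 snoRNP assembly factors 8 rose, with the ATPase RUVBL1 up 2.03-fold (adjusted p = 1.9e-06), of 14 genes of the RNA exosome 9 rose, with EXOSC8 up 3.45-fold (adjusted p = 6.8e-07), and of 20 RNA polymerase III genes 6 rose, with POLR3G up 2.74-fold (adjusted p = 7.6e-07). Cytosolic ribosomal protein genes, the products that these factors assemble, gave 10 risen of 58 measured and a median of 0.14, with RPL7A up 1.30-fold (adjusted p = 0.011). With heregulin 0 of 11 other RNA polymerase I factors, 4 of 41 other small-subunit factors, 3 of 43 other large-subunit factors and 0 of 58 ribosomal protein genes passed as higher, against 3.45% of all genes.

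The RNA of MYC, the transcription factor known to drive these genes, had group means in another order than the members. Its log2 intensity was 10.15, 10.22 and 10.11 untreated, 9.89, 9.92 and 10.00 with AP1510, 10.41, 10.48 and 10.57 with heregulin, and 10.31, 10.20 and 10.34 with TGF-alpha. Its mean was highest with heregulin (log2 change 0.33 ± 0.0829, adjusted p = 0.020), while the change with TGF-alpha was 0.12 ± 0.0829 (adjusted p = 0.34) and with AP1510 -0.23 ± 0.0829 (adjusted p = 0.26). Heregulin minus TGF-alpha was 0.21 ± 0.0829 and did not pass (adjusted p = 0.096). Both ligands were above AP1510, by 0.55 for heregulin (adjusted p = 5e-04) and 0.35 for TGF-alpha (adjusted p = 0.0054). Of the 12 genes of the MYC network, MXD3 rose with TGF-alpha (1.22-fold, adjusted p = 0.044) and MXD1, an antagonist of MYC, fell by 0.84 on the log2 scale (adjusted p = 6.2e-05). The arrays measure RNA and not MYC protein or its activity, and the part of MYC in the changes of the members was not tested.

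Proliferation genes moved with the members under TGF-alpha and less so under the other treatments. All 20 rose with TGF-alpha (median 1.47), with TYMS, of thymidylate synthesis, up 5.28-fold (adjusted p = 2.7e-08). With heregulin 3 of 20 rose with a median of 0.09, below the median of 0.32 of the biogenesis genes, and the count was 1 without heregulin replicate 3, 2 without untreated replicate 1 or heregulin replicate 1, and 5 without heregulin replicate 2. With array weights 7 rose and 1 fell. Calls over all genes with heregulin, in either direction, were 8.5% in the main fit and 16.3% with array weights. They were 5.86% to 7.39% in the fits just named that left out an array. With AP1510 7 of 20 rose with a median of 0.42, above the 0.09 of the biogenesis genes, and 3 of 20 rose without AP1510 replicate 1. Without that array, calls over all genes also fell, from 1.47% to 0.516% in either direction. MKI67, a marker of cycling cells, was higher by 3.64-fold with TGF-alpha (adjusted p = 1.9e-09), by 1.76-fold with AP1510 (adjusted p = 4.8e-04, or 1.72-fold and 0.0031 without AP1510 replicate 1) and by 1.42-fold with heregulin (adjusted p = 0.0031). The part of proliferation in the changes of the biogenesis genes was not tested.

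**Figure D4:**
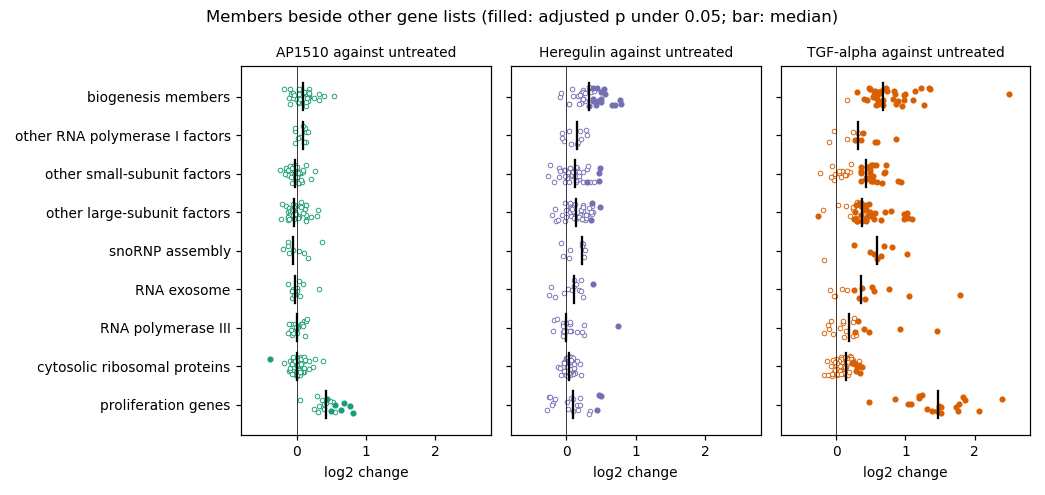
Log2 change against untreated cells of the measured ribosome biogenesis genes and of 8 other gene lists, for AP1510, heregulin and TGF-alpha; each point is a gene, filled where its adjusted p is under 0.05, and bars are medians. The biogenesis genes have medians of 0.09, 0.32 and 0.68 and the proliferation genes 0.42, 0.09 and 1.47.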

How the data were processed

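Biotin-labelled RNA of 12 dishes was read on Affymetrix arrays. The authors summarized the scans with RMA, per the submitters' processing notes (version not given), and deposited log2 values per probe set. RMA corrects background, equalizes arrays and summarizes probes. This can shrink large changes and hides a change in total RNA. The table held 33297 probe sets, of which 19460 named 1 gene in the platform annotation. Symbols were updated through RefSeq for 19429, and 18417 genes were tested. Differences were tested with limma 3.58.1 (R 4.3.3) in one fit over the 12 arrays and 4 groups (8 residual degrees of freedom), adjusted by Benjamini-Hochberg over all genes for each comparison, with a threshold of 0.05. The number of arrays limits the precision.

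The members and all lists were chosen with earlier results of these data known. Full values are given, per role class, for the member with the largest and the smallest moderated F, and for those with the largest and smallest difference between heregulin and TGF-alpha; other names illustrate a count or were chosen after their values were seen. Of the pathway lists, the called genes with the largest rise and fall under TGF-alpha are named, with MYC, RRN3, UBTF and MKI67. Alternatives changed the arrays in the fit, normalization, centring, dim genes, spread model, array weights, probe set choice and class membership, and left out each array.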

Additional observations from a re-analysis of the deposited data

Results flagged for a closer look

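Probe sets that list a member together with other genes were outside the comparisons, and on 4 of them all 3 TGF-alpha arrays lay above all 3 untreated arrays. The probe set shared by PPAN-P2RY11, PPAN and P2RY11 had a log2 change of 0.32 (limma adjusted p over all probe sets = 0.036). The one shared by SNORD56 and NOP56 changed by 0.27 (adjusted p = 0.074). Those shared by DKC1 with MIR664B and SNORA36A, and with SNORA56, changed by 0.18 (adjusted p = 0.14) and 0.29 (adjusted p = 0.32). None of these values can be given to a single gene.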

How the results depend on the processing

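The TGF-alpha count against untreated was 37 to 38 when each array was left out and 38 to 39 otherwise, that against AP1510 35 to 37 and 36 to 37, and the F test 37 to 38. AP1510 against untreated gave 1 member with dim genes left out, with trend and robust spread and with array weights, and 0 to 1 when arrays were left out. Of all genes fitted, 3.1%, 2.19% and 1.94% were called in either direction with these settings, in that order, against 1.47% in the main fit. Heregulin against untreated gave 11 members with only the 2 groups fitted and 29 with array weights, and 9 to 20 when arrays were left out. The calls over all genes, in either direction, moved too, from 8.5% in the main fit to 6.27% with only the 2 groups. They were 16.3% with array weights and 5.64% to 8.7% when arrays were left out. Heregulin against AP1510 gave 3 with only the 2 groups, 15 with dim genes left out, 14 with trend and robust spread and 19 with array weights, and 2 to 15 when arrays were left out. Heregulin against TGF-alpha gave 26 to 35, and 17 to 30 when arrays were left out. With NOLC1, DDX21, MYBBP1A and NAT10 moved to their other class, the class level against untreated became 0.59 (TGF-alpha) and 0.23 (heregulin) for the snoRNP core and 0.85 and 0.40 for RNA polymerase I; with the mean of a gene's probe sets the snoRNP core was 0.73 with TGF-alpha. Among the members with full values, changes of sign touched only differences that had not passed. The class level under AP1510 against untreated was -0.07 to 0.07 for the large subunit (0.02 with all arrays) and -0.02 to 0.13 for the small subunit (0.08 with all arrays) when arrays were left out, a setting chosen after seeing the data. When arrays were left out, these ranged, for AP1510 against untreated, from -0.08 to 0.15 for WDR43, -0.03 to 0.30 for WDR75, -0.03 to 0.05 for MYBBP1A and -0.12 to 0.03 for NHP2, and, for heregulin against AP1510, from -0.06 to 0.27 for WDR75 and -0.12 to 0.04 for NHP2. NHP2 was also 0.02 above untreated under AP1510 with the mean of its probe sets, and 0.05 above AP1510 under heregulin with array weights. The cause was not tested. Renewed quantile normalization or centring moved the median of all genes by at most 0.025. No paired analysis was possible because the labels give the groups no shared replicate numbers.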
